A study of Homo sapiens with 10 samples.

Results

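The genes of the integrin and laminin subunits were compared across 5 human prostate cancer cell lines. The 37 genes were taken by name from the 60642 gene symbols of the deposited expression table and comprise 18 integrin alpha subunits, 8 integrin beta subunits and 11 laminin chains. LNCaP, DUCAP, VCAP, DU145 and PC3 cells were grown untreated in phenol-red-free RPMI medium with fetal bovine serum (5 to 10% per the labels) and harvested in exponential growth, and polyA-selected, strand-specific libraries of 2 biological repeats per line were sequenced, giving 10 samples, which the study used as baseline profiles for predicting drug response. All are established lines derived from metastases, the LNCaP cells were the FGC clone, DUCAP and VCAP are known to come from the same patient, and a culture holds no stroma, vessel or native basement membrane. The p-values below measure the spread between the repeats of a line and therefore speak of these 5 lines only. In bulk RNA a lower level cannot be told apart from fewer cells making the transcript.

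Integrins are cell surface receptors made of an alpha and a beta subunit. The beta 1 subunit pairs with many alpha subunits, whereas the beta 4 subunit pairs with alpha 6 alone and anchors the cell to laminin through hemidesmosomes. Laminins are secreted trimers of an alpha, a beta and a gamma chain that assemble the basement membrane, and in the prostate the basal cells that rest on this sheet are known for their high alpha 6 beta 4, which the luminal cells largely lack. The alpha 3 beta 1, alpha 6 beta 1 and alpha 6 beta 4 receptors bind laminins, alpha 1 beta 1 and alpha 2 beta 1 bind collagens, and alpha 5 beta 1 and the alpha V receptors bind the RGD motif of fibronectin and vitronectin.

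Levels are given as TPM, a gene's length-corrected share of the transcripts of a sample, so that levels of different genes can be set beside each other. Paired values are those of repeat 1 and repeat 2 of a line. Differences between lines are given as log2 fold changes of TPM + 1 with their standard error (SE) and the Benjamini-Hochberg adjusted p of limma, fitted over the 17520 genes that reached 1 TPM in 2 or more samples. A difference was called at an adjusted p under 0.05. The added 1 makes the change of a low gene look smaller than it was. Of the 37 members, 27 passed the filter and 10 did not. A member that passed only through the lines in which it was high had to differ between lines, and this applied to 8 members that passed only through DU145 and PC3 and to 2 that passed only through LNCaP, DUCAP and VCAP.

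The epithelial markers KRT8, KRT18 and EPCAM were present in all 10 samples, at 23.4 TPM or more. The E-cadherin gene CDH1, the remaining epithelial marker, was at 104 to 375 TPM in LNCaP, DUCAP and VCAP, at 72.4 and 46.3 in DU145 and at 3.78 and 9.74 in PC3. The prostate luminal kallikreins KLK3 and KLK2 were at 28.3 TPM or more in LNCaP, DUCAP and VCAP and at 0.77 TPM or less in DU145 and PC3. TPM are shares of a total, and mitochondrial transcripts took 12.7 to 36.0% of it, with the highest shares in DUCAP and VCAP. The median log2 fold change of all genes tested between DU145 and PC3 and the other lines was 0.40 rather than 0. It was -0.07 with quantile normalization, 0.02 with median-ratio scaling and 0.20 once the mitochondrial genes were taken out of the total, the 3 other scalings tried. Each difference below is therefore to be read against that median.

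**Figure D1:**
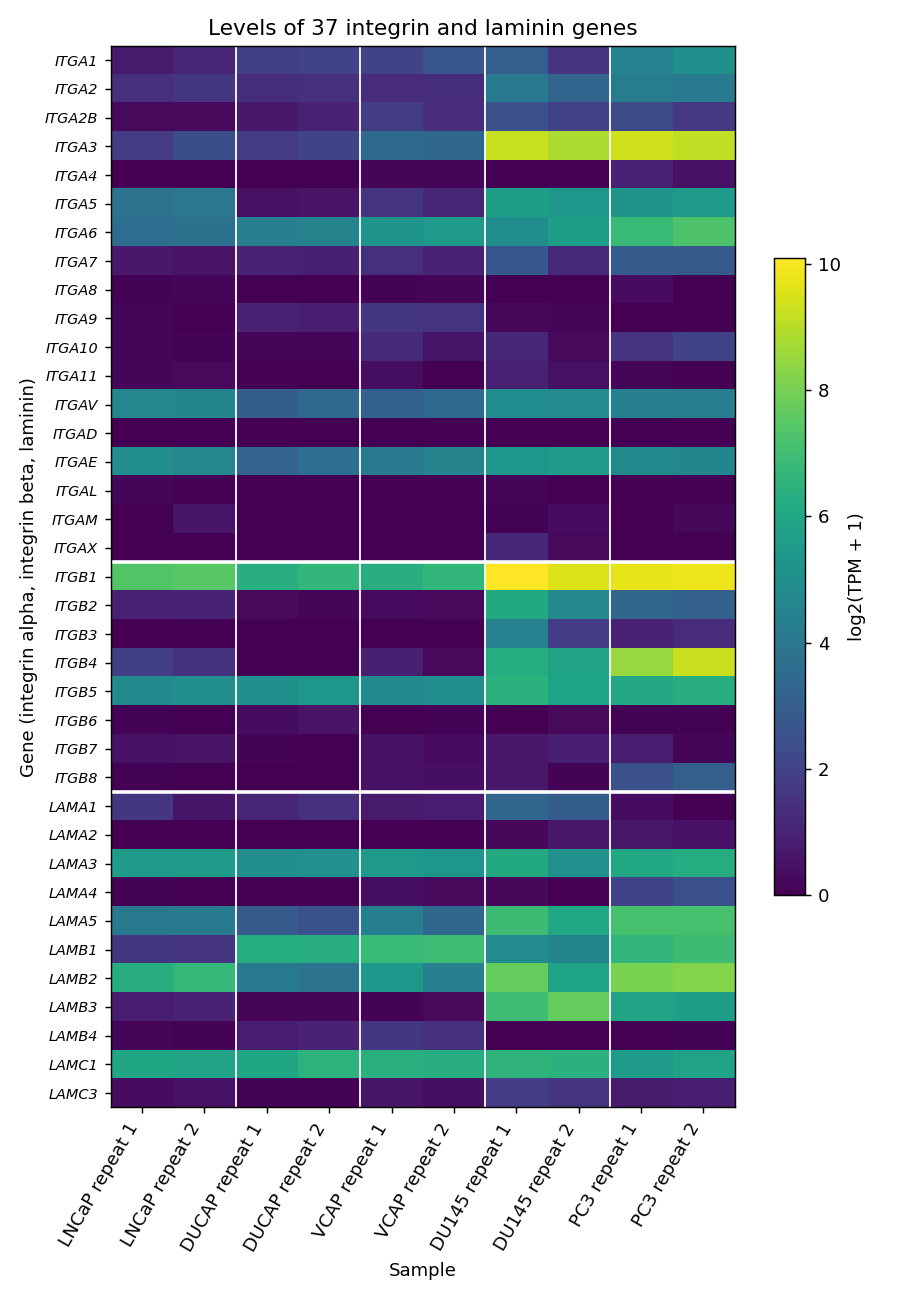
Levels of the 37 genes, as log2(TPM + 1) by colour, in each repeat of the 5 lines, with integrin alpha subunits above, integrin beta subunits in the middle and laminin chains below. ITGB1 and ITGA3 were brightest in the 4 samples of DU145 and PC3, ITGB4 was bright in PC3, and LAMB1 was dark in LNCaP.

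In the limma F test for any difference among the 5 lines, 27 of the 27 members tested were called, beside 90.8% of all genes tested. LAMA3 was at the threshold (adjusted p = 0.047) and was not called under any of the 3 other scalings, which left 26, nor without the variance trend (adjusted p = 0.051). Between DU145 and PC3 on one side and LNCaP, DUCAP and VCAP on the other, 24 of the 27 were called higher in DU145 and PC3, beside 51.9% of all genes tested, and 2 were called lower, beside 22.5%. The 24 include the 8 that passed the filter only through DU145 and PC3 (ITGA7, ITGA10, ITGB2, ITGB3, ITGB8, LAMA4, LAMB3 and LAMC3), and the 2 called lower, ITGA9 and LAMB4, passed it only through LNCaP, DUCAP and VCAP, so neither count is evidence about the members. The members' median difference was 1.42 on the log2 scale, which is 1.02 above the 0.40 of all genes tested. For 11 of the 27 members every DU145 and PC3 sample lay above every other sample, beside 19.8% of all genes, and for 0 every such sample lay below, beside 6.92%. These 11 were ITGA2, ITGA3, ITGA5, ITGB1, ITGB2, ITGB3, ITGB4, ITGB5, LAMA5, LAMB3 and LAMC3. Of them, ITGB2, ITGB3, LAMB3 and LAMC3 passed the filter only through DU145 and PC3. The median includes all members that passed through one side only, so neither it nor the count of 11 is evidence about the members. For the other members tested the groups overlapped. ITGA1, ITGA6, ITGA7, ITGA10, ITGB8, LAMA4 and LAMB2 stood above the other lines in PC3 alone, and ITGAV, ITGAE and LAMA1 in DU145 alone. The split of all genes tested into 9093 higher and 3940 lower depends on the scaling, and it became 6019 and 6825 with quantile normalization, 6616 and 6092 with median-ratio scaling and 8002 and 5196 with the mitochondrial genes taken out. The members' split moved less, to 21 and 3, 22 and 3, and 22 and 3.

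**Figure D2:**
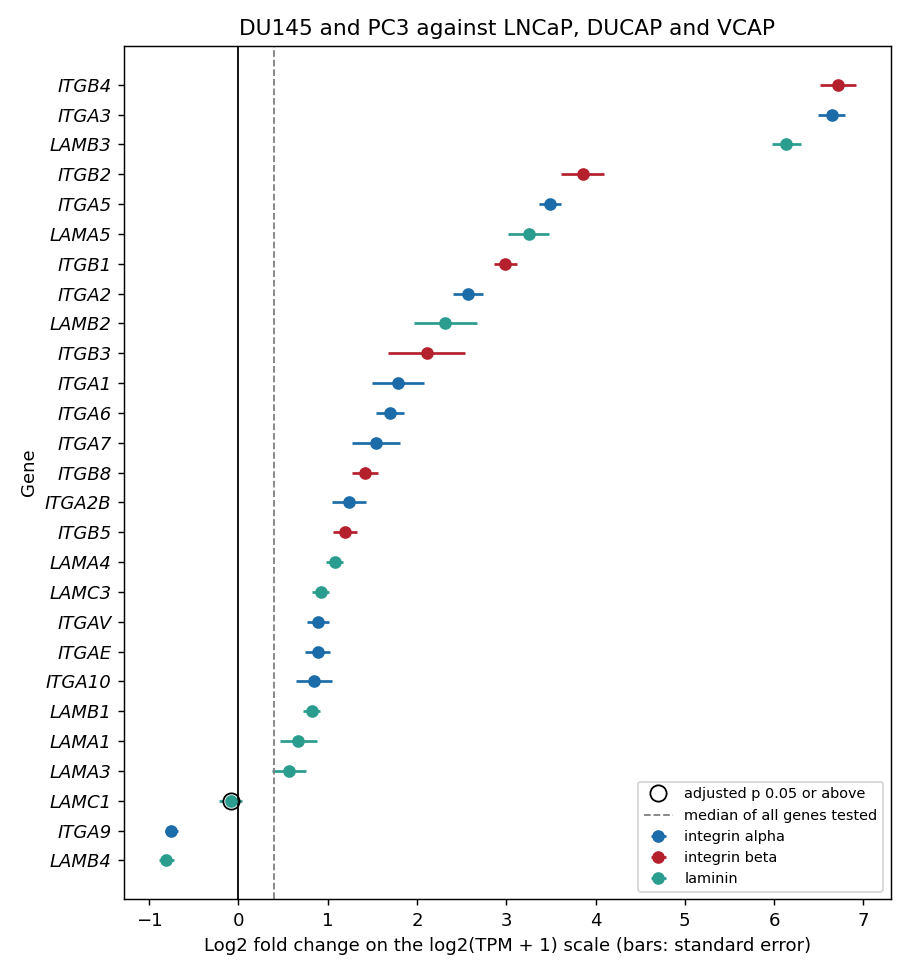
Log2 fold change of each of the 27 members tested, DU145 and PC3 minus LNCaP, DUCAP and VCAP, on the log2(TPM + 1) scale, with bars for the standard error and a dashed line at the median of all genes tested (0.40). ITGB4, ITGA3 and LAMB3 stood above 6, ITGA9 and LAMB4 lay below 0, and the circled LAMC1 had an adjusted p above 0.05.

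The common integrin beta subunit was the most abundant integrin subunit in every line. ITGB1 (chr10:32900318-32958230 in GRCh38.p14) stood at 164 and 176 TPM in LNCaP, 77.1 and 102 in VCAP, 81.4 and 101 in DUCAP, 840 and 902 in PC3, and 1089 and 758 in DU145. The 4 samples of DU145 and PC3 were all above the other 6, and the DUCAP and VCAP values overlapped. The log2 fold change of DU145 and PC3 against the other lines was 2.99 (SE 0.134, adjusted p = 2.8e-07). LNCaP was above DUCAP and VCAP by 0.91 (adjusted p = 0.0021), a call that was lost with quantile normalization (0.27, adjusted p = 0.25) and with median-ratio scaling (0.26, adjusted p = 0.25). ITGB1 made up 55.6 to 84.3% of the summed TPM of the 8 beta subunits in every sample, a share that no rescaling of a whole sample can move.

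ITGB4 (chr17:75721459-75757818), the beta subunit of the hemidesmosome, showed the largest difference of any member between the groups of lines. It was at 2.69 and 1.80 TPM in LNCaP, listed at 0 in both DUCAP repeats, at 0.86 and 0.20 in VCAP, at 74.4 and 55.1 in DU145, and at 372 and 624 in PC3. LNCaP, DUCAP and VCAP stayed below 3 TPM, DU145 lay in between and PC3 was highest, without overlap. The log2 fold change of DU145 and PC3 against the others was 6.71 (SE 0.199, adjusted p = 3.3e-08), and DU145 was below PC3 (log2 fold change -2.89, SE 0.309, adjusted p = 1.2e-04). LNCaP was above DUCAP and VCAP by 1.39 (adjusted p = 0.0019), a difference among values under 3 TPM. ITGB4 took 28.8 and 38.5% of the beta subunit TPM in PC3, 5.54 and 6.12% in DU145 and 1.38% or less in the other samples.

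ITGB5, which pairs with alpha V, was expressed in all lines, at 27.2 and 29.5 TPM in LNCaP, 27.2 and 30.0 in VCAP, 32.7 and 39.9 in DUCAP, 66.9 and 79.8 in PC3, and 87.2 and 57.2 in DU145. Its groups did not overlap, and the log2 fold change was 1.20 (SE 0.135, adjusted p = 6.3e-05), or 0.67 with quantile normalization and 0.73 with median-ratio scaling. Among the other 3 contrasts it was called in none. ITGB5 formed 22.5 to 28.5% of the beta subunit TPM in DUCAP and VCAP, against 4.92 to 6.49% in DU145 and PC3.

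ITGB2, the beta subunit of the leukocyte integrins, was at 0.90 and 0.95 TPM in LNCaP, at 0.23 or less in DUCAP and VCAP, at 69.9 and 25.9 in DU145, and at 9.06 and 7.52 in PC3. It was higher in DU145 and PC3 by 3.86 (SE 0.243, adjusted p = 1.8e-06) and higher in DU145 than in PC3 by 2.24 (adjusted p = 0.0015), and its DU145 repeats were themselves 1.40 apart on the log2 scale. The alpha subunits that are its known partners were nearly absent: ITGAD was listed at 0 in every sample, ITGAL reached 0.13 TPM, ITGAM 0.47 and ITGAX 1.19, the last in repeat 1 of DU145, where ITGB2 was highest. The 6 leukocyte markers summed to 0.02 to 0.31 TPM in LNCaP, DUCAP and VCAP, 0.27 to 1.66 in DU145 and PC3, with PTPRC at 0.12 TPM or less in all samples, CD3E and SPN listed at 0 throughout, and only CD14 reaching 1 TPM, at 1.43 in the same DU145 repeat.

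ITGB3, the partner of alpha V and of the platelet subunit alpha IIb, differed widely between the DU145 repeats. It was at 0.02 TPM or less in LNCaP, DUCAP and VCAP, at 21.0 and 2.58 in DU145 and at 0.92 and 1.41 in PC3. The groups did not overlap (log2 fold change 2.11, SE 0.428, adjusted p = 0.0021), but the difference between DU145 and PC3 was 2.05 (adjusted p = 0.032) with both repeats, 0.73 without repeat 1 of DU145 and 3.36 without repeat 2. That call was lost without any 1 repeat of DUCAP, VCAP or PC3 (adjusted p = 0.05 to 0.13). ITGA2B, alpha IIb itself, ranged from 0.19 to 2.52 TPM in LNCaP, DUCAP and VCAP and from 2.21 to 4.71 in DU145 and PC3. It was higher in the latter pair by 1.24 (adjusted p = 4.2e-04), and 0.74 with quantile normalization. The 3 platelet markers summed to 0.22 TPM or less in every sample.

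ITGB8, a beta subunit that pairs with alpha V, reached 4.64 and 7.32 TPM in PC3 and 0.60 or less elsewhere. It was lower in DU145 than in PC3 (log2 fold change -2.40, adjusted p = 6.2e-05). ITGB6 and ITGB7 did not pass the filter, with highest values of 0.44 TPM in DUCAP and 0.82 in PC3.

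**Figure D3:**
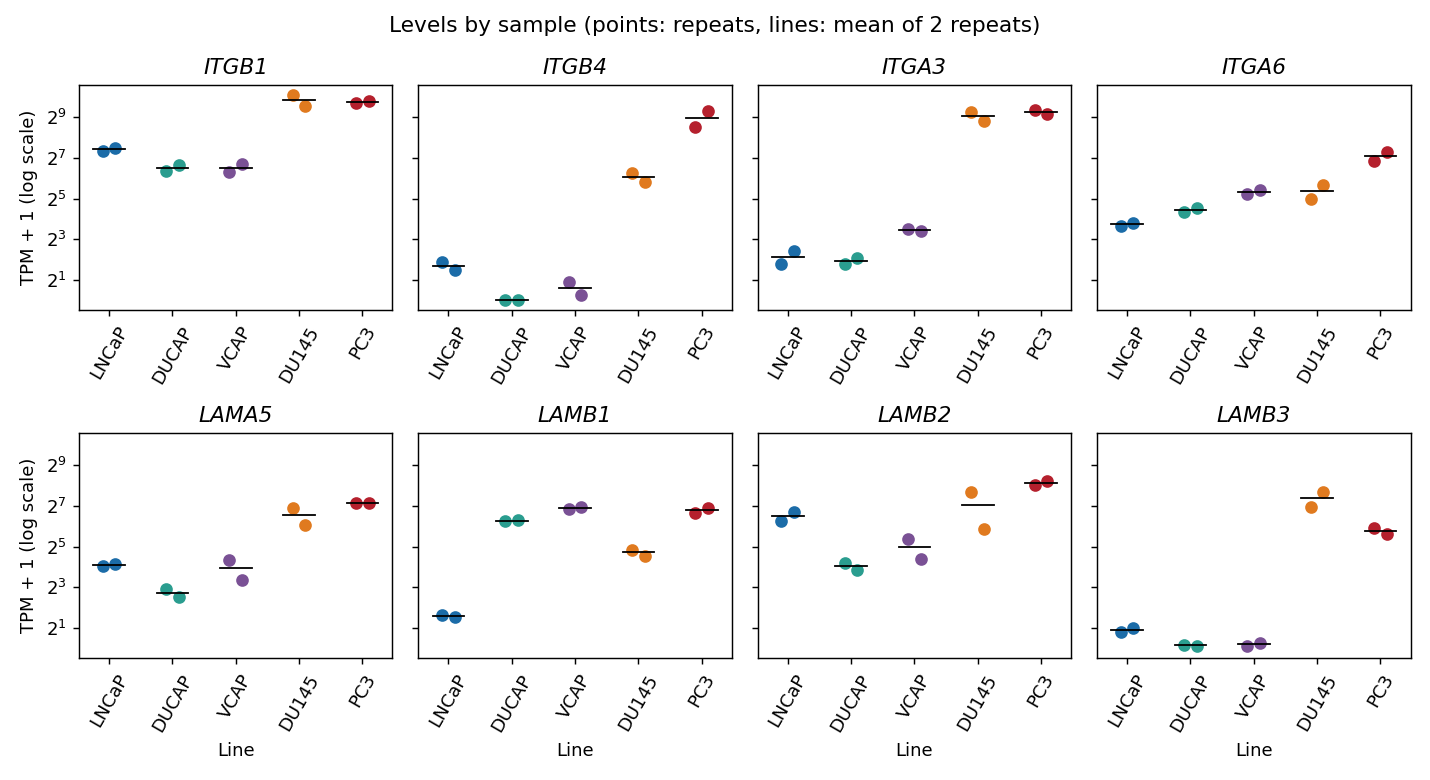
TPM + 1 on a log axis for 8 members in each line, with points for the repeats. The horizontal bar marks the arithmetic mean of the TPM of the 2 repeats, plus 1. ITGB1, ITGB4 and ITGA3 separated DU145 and PC3 from the other lines, whereas LAMB1 was low in LNCaP and LAMB3 high only in DU145 and PC3.

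Among the alpha subunits, the laminin receptor subunit ITGA3 (chr17:50056110-50090481) showed the widest difference. It stood at 2.46 and 4.32 TPM in LNCaP, 10.3 and 9.45 in VCAP, 2.48 and 3.24 in DUCAP, 650 and 563 in PC3, and 610 and 455 in DU145. The 4 samples of DU145 and PC3 were far above the other 6, with a log2 fold change of 6.65 (SE 0.151, adjusted p = 1.1e-08). DU145 and PC3 overlapped, and their difference of -0.20 was not called (SE 0.234, adjusted p = 0.53). VCAP was above DUCAP, with a log2 fold change of DUCAP minus VCAP of -1.50 (adjusted p = 0.0038). ITGA3 formed 65.2 to 76.9% of the summed TPM of the 18 alpha subunits in DU145 and PC3 and 2.87 to 12.0% in the other lines.

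ITGA6 (chr2:172427336-172506459), the only alpha partner of beta 4, varied over a narrower range and in another order. It was at 11.7 and 12.9 TPM in LNCaP, 36.4 and 41.9 in VCAP, 19.0 and 21.8 in DUCAP, 113 and 154 in PC3, and 30.2 and 50.03 in DU145. VCAP lay within the spread of DU145, and PC3 was above all other samples. DU145 was below PC3 (log2 fold change -1.74, SE 0.246, adjusted p = 5.9e-04), and LNCaP was below DUCAP and VCAP (log2 fold change -1.14, adjusted p = 0.0016, or -1.76 with quantile normalization and -1.77 with median-ratio scaling). The call of DU145 and PC3 over the others (1.70, SE 0.159, adjusted p = 2e-05) was kept under every scaling, at 1.12 with quantile normalization. ITGA6 was the leading alpha subunit of DUCAP and VCAP, with 39.6 to 43.6% of the alpha subunit TPM.

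The ratio of ITGA6 to ITGB4, the subunits of the hemidesmosome receptor, fell on either side of 1 in the 2 groups of lines. It was 4.34 and 7.17 in LNCaP, 42.3 and 209 in VCAP, and undefined in DUCAP, where ITGB4 was listed at 0. In DU145 it was 0.405 and 0.908, and in PC3 it was 0.304 and 0.247. These are ratios of transcript levels, not of receptor at the cell surface.

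ITGA5, which with beta 1 forms the fibronectin receptor, was at 13.3 and 14.8 TPM in LNCaP, 1.90 and 1.14 in VCAP, 0.37 and 0.45 in DUCAP, 36.0 and 42.0 in PC3, and 48.0 and 39.7 in DU145. DU145 and PC3 overlapped above all other samples, LNCaP lay between and DUCAP and VCAP were lowest. The log2 fold change of DU145 and PC3 over the others was 3.49 (SE 0.125, adjusted p = 8.2e-08), and that of LNCaP over DUCAP and VCAP was 3.0 (SE 0.167, adjusted p = 2.1e-06).

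ITGAV, the alpha subunit of the vitronectin receptors, was at 25.2 and 23.4 TPM in LNCaP, 7.81 and 9.95 in VCAP, 6.97 and 10.1 in DUCAP, 20.1 and 19.1 in PC3, and 28.9 and 28.0 in DU145. LNCaP thus lay between PC3 and DU145, and DUCAP and VCAP overlapped below them. LNCaP was above DUCAP and VCAP by 1.40 (SE 0.163, adjusted p = 1.1e-04), or by 0.78 with quantile normalization and likewise with median-ratio scaling. DU145 and PC3 were above the other lines by 0.89 (adjusted p = 2e-04), or by 0.34 and 0.45 under those scalings.

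ITGAE, which pairs with beta 7 and binds E-cadherin, was at 29.4 and 24.3 TPM in LNCaP, 16.9 and 21.7 in VCAP, 8.11 and 12.0 in DUCAP, 26.9 and 23.8 in PC3, and 38.4 and 46.9 in DU145. Its samples were highest in DU145 and lowest in DUCAP, and those of LNCaP and PC3 overlapped. The excess of LNCaP over DUCAP and VCAP (0.90, adjusted p = 0.003) was lost with quantile normalization (0.29, adjusted p = 0.15) and with median-ratio scaling (0.28, adjusted p = 0.19). Its known partner ITGB7 was at 0.82 TPM or less in all samples. ITGAE and ITGAV were the leading alpha subunits of LNCaP, with 34.4 and 28.8% and 29.4 and 27.8% of the alpha subunit TPM.

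The collagen receptor subunits ITGA1 and ITGA2 are neighbours on chromosome 5, with 30142 bases between them in GRCh38.p14, and they followed different orders. ITGA1 was at 0.64 and 1.04 TPM in LNCaP, 3.17 and 5.55 in VCAP, 2.7 and 3.04 in DUCAP, 21.5 and 32.5 in PC3, and 7.07 and 1.90 in DU145. PC3 was above all other samples, the DU145 repeats enclosed those of DUCAP and VCAP, and DU145 was below PC3 (log2 fold change -2.50, SE 0.453, adjusted p = 0.0022). ITGA2 ranged from 1.40 to 2.05 TPM in LNCaP, DUCAP and VCAP and from 8.72 to 17.9 in DU145 and PC3, a log2 fold change of 2.57 (SE 0.166, adjusted p = 2.1e-06) without overlap.

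The remaining alpha subunits were low. ITGA7 reached 6.65 TPM in PC3 and was higher in DU145 and PC3 by 1.54 (adjusted p = 8.5e-04), and ITGA10 reached 3.08 TPM in PC3 and was higher by 0.85 (adjusted p = 0.0054), or by 0.55 with quantile normalization. ITGA9 was one of the 2 members called lower in DU145 and PC3 (log2 fold change -0.75, adjusted p = 2.1e-05), with 2.13 and 1.85 TPM in VCAP, 0.93 and 0.79 in DUCAP and 0.16 or less in the other samples. ITGA4, ITGA8 and ITGA11 did not pass the filter, with highest values of 0.96 TPM in PC3, 0.22 in PC3 and 0.89 in DU145.

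The summed level of the alpha subunits was 43.9 to 96.1 TPM in LNCaP, DUCAP and VCAP and 636 to 900 TPM in DU145 and PC3. That of the beta subunits was 106 to 209 and 900 to 1622 TPM. In both families the summed level of every DU145 and PC3 sample was above that of all other samples, and ITGA3 and ITGB1 were the leading subunits of these 4.

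**Figure D4:**
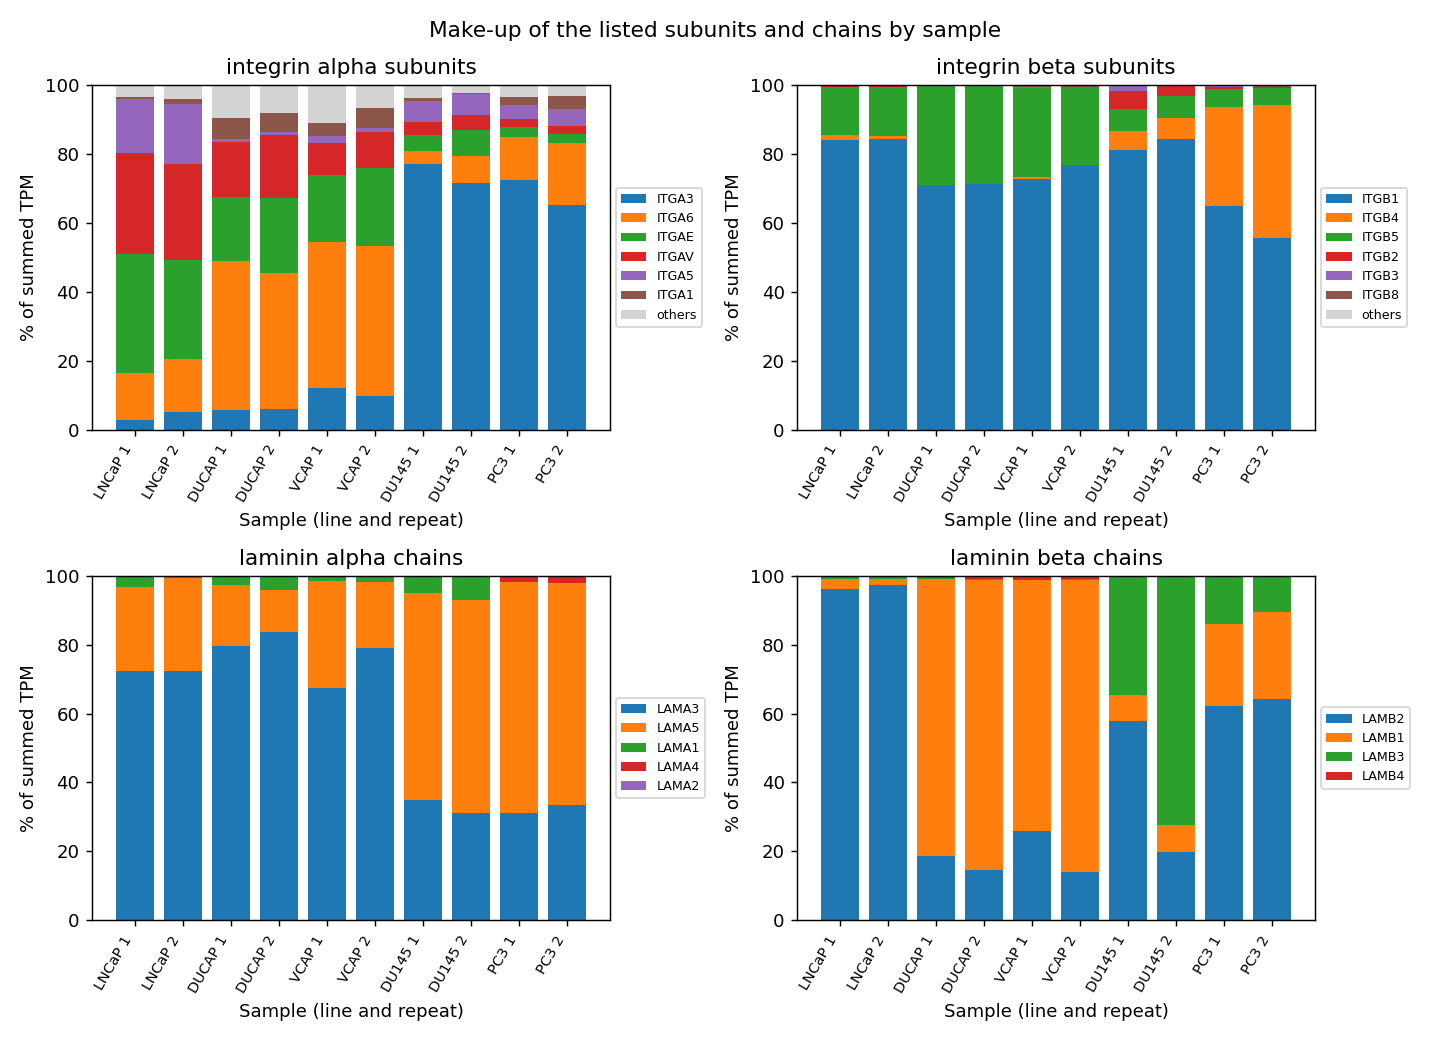
Share of each gene in the summed TPM of the integrin alpha subunits, integrin beta subunits, laminin alpha chains and laminin beta chains, in % by sample. ITGA3 took 65.2 to 76.9% of the alpha subunits in DU145 and PC3, and the leading laminin beta chain was LAMB2 in LNCaP and PC3, LAMB1 in DUCAP and VCAP, and either LAMB2 or LAMB3 in the DU145 repeats.

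The laminin beta chains differed between the lines in which of them led, and their promoters are shown for that reason. The sequences run from 250 bases before to 50 bases after the annotated start of each gene, in RefSeq for GRCh38.p14, and all 3 are read from the minus strand. Capitals mark the GC box (GGGCGG or its reverse complement CCGCCC) and the E-box (CAGGTG or CACCTG).
LAMB1, chr7:108003112-108003411: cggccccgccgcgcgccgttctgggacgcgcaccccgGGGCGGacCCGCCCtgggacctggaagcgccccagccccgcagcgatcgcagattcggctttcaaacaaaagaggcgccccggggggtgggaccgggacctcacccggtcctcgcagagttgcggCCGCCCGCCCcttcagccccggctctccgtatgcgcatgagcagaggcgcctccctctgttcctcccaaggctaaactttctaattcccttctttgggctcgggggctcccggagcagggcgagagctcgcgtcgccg
LAMB2, chr3:49133001-49133300: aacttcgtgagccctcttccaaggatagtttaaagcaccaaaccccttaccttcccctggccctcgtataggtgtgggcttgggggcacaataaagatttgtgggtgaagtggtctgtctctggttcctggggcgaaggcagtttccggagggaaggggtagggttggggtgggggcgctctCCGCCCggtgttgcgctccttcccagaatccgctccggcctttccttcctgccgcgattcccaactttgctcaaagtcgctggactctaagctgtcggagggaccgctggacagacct
LAMB3, chr1:209652376-209652675: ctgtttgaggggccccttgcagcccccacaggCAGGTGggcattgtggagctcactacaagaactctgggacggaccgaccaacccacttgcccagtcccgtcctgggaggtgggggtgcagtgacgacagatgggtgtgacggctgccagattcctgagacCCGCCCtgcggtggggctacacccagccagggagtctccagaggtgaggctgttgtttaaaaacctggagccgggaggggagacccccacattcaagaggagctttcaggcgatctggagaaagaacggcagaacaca
The LAMB1 window held 35 CpG dinucleotides and 4 GC boxes, that of LAMB2 15 and 1, and that of LAMB3 10 and 1 with 1 E-box, against a median of 14 CpG over the 27305 promoters of that length. A GC box was found in 44.6% of those promoters and an E-box in 20.6%. Of the 26 members with a promoter in the table, 14 held a GC box and 7 an E-box, on either strand. The AP-1 motif TGANTCA stood in 7.76% of all promoters and in those of ITGA5 and LAMA3, and TATAAA in 12.0% and in that of ITGA6. The LAMA3 window (chr18:23872770-23873069) lies inside the gene, whose coordinates start at 23689453, so that outer start is not covered. A match describes letters only.

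LAMB1, whose promoter holds the 4 GC boxes, was at 2.15 and 1.89 TPM in LNCaP, 115 and 123 in VCAP, 75.4 and 77.3 in DUCAP, 99.8 and 119 in PC3, and 27.8 and 22.6 in DU145. LNCaP lay below all other samples, DU145 came next, then DUCAP, and VCAP and PC3 overlapped. LNCaP was below DUCAP and VCAP (log2 fold change -4.99, SE 0.130, adjusted p = 7e-08), and DU145 below PC3 (log2 fold change -2.07, SE 0.150, adjusted p = 1.3e-05). The difference of DU145 and PC3 from the other 3 lines (0.82, adjusted p = 8.1e-05) averaged over those unlike levels and was lost with quantile normalization (0.25, adjusted p = 0.053).

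LAMB2 (chr3:49121114-49133050) was instead higher in LNCaP than in DUCAP and VCAP. It was at 76.2 and 104 TPM in LNCaP, 40.7 and 20.1 in VCAP, 17.6 and 13.5 in DUCAP, 262 and 300 in PC3, and 206 and 56.9 in DU145. PC3 was above all other samples, the DU145 repeats enclosed those of LNCaP, and DUCAP was lowest. LNCaP was above DUCAP and VCAP by 2.03 (SE 0.474, adjusted p = 0.0053), or by 1.40 with quantile normalization, where the call was lost (adjusted p = 0.054). DU145 and PC3 were above the other lines by 2.32 (SE 0.353, adjusted p = 3.8e-04), and the difference of DU145 from PC3 was not called (log2 fold change -1.36, SE 0.547, adjusted p = 0.07).

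LAMB3 (chr1:209614870-209652425) separated the groups without overlap, at 0.73 and 1.01 TPM in LNCaP, 0.08 and 0.20 in VCAP, 0.12 and 0.09 in DUCAP, 58.9 and 48.9 in PC3, and 123 and 206 in DU145. The log2 fold change of DU145 and PC3 over the others was 6.14 (SE 0.158, adjusted p = 1.9e-08), and that of DU145 over PC3 was 1.55 (SE 0.245, adjusted p = 0.001). LAMB3 was, with ITGB4 and ITGA3, one of 3 members whose difference exceeded 6 on this scale. LAMB4, which lies 8500 bases from LAMB1 on chromosome 7, was the other member called lower in DU145 and PC3 (log2 fold change -0.81, adjusted p = 3.7e-05), at 2.10 and 1.59 TPM in VCAP, 0.69 and 0.95 in DUCAP and 0.13 or less elsewhere.

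As shares of the laminin beta chain TPM, LAMB2 made up 96.2 and 97.2% in LNCaP, and LAMB1 72.8 to 84.9% in DUCAP and VCAP. In PC3 LAMB2 held 62.3 and 64.1% and LAMB1 23.7 and 25.4%. In DU145 the repeats differed, with LAMB2 at 57.7% and LAMB3 at 34.5% in repeat 1 and LAMB2 at 19.9% and LAMB3 at 72.2% in repeat 2. The leading beta chain of DU145 thus differed between its repeats.

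Of the laminin alpha chains, LAMA3, which is known to pair with the beta 3 chain, was expressed in every line, at 46.8 and 45.6 TPM in LNCaP, 42.4 and 38.0 in VCAP, 29.5 and 33.3 in DUCAP, 65.2 and 74.4 in PC3, and 69.2 and 33.2 in DU145. Repeat 2 of DU145 lay within the range of DUCAP, so that the groups overlapped. The difference of DU145 and PC3 from the others was 0.57 (SE 0.186, adjusted p = 0.023), and it was not called with quantile normalization (0.03), with median-ratio scaling (0.10) or with the mitochondrial genes taken out (0.33). It was 0.31 without repeat 1 of DU145, and the call was lost without repeat 1 of DUCAP, repeat 2 of VCAP or repeat 2 of PC3 (adjusted p = 0.052 to 0.076). The ratio of LAMA3 to LAMB3 was 45.1 to 530 in LNCaP, DUCAP and VCAP and 0.161 to 1.52 in DU145 and PC3.

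LAMA5 (chr20:62309065-62367312), the alpha chain common in adult basement membranes, was at 15.8 and 17.0 TPM in LNCaP, 19.6 and 9.24 in VCAP, 6.55 and 4.78 in DUCAP, 139 and 142 in PC3, and 119 and 66.1 in DU145. All 4 samples of DU145 and PC3 were above the other 6, with a log2 fold change of 3.25 (SE 0.230, adjusted p = 3.7e-06). LAMA3 was the leading alpha chain in LNCaP, DUCAP and VCAP with 67.4 to 83.8% of the laminin alpha TPM, and LAMA5 in DU145 and PC3 with 60.01 to 66.8%.

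LAMA1, an alpha chain known from the embryo, was at 9.63 and 6.90 TPM in DU145, 0.27 and 0.02 in PC3 and 0.49 to 2.05 in the other lines. DU145 was above PC3 by 3.01 (SE 0.325, adjusted p = 1.3e-04), while the call of both against the other lines (0.67, adjusted p = 0.018) was lost under all 3 scalings. LAMA4, found in vessel walls and muscle, showed the opposite order, with 3.25 and 4.48 TPM in PC3 and 0.29 or less elsewhere (DU145 minus PC3 -2.16, adjusted p = 9.3e-06). LAMA2, the alpha chain of the muscle basement membrane, did not pass the filter and reached 0.58 TPM in PC3.

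LAMC1 (chr1:183023420-183145592), the gamma chain of most laminins, was expressed in every line. It was at 60.6 and 59.1 TPM in LNCaP, 84.6 and 76.8 in VCAP, 60.8 and 91.9 in DUCAP, 44.9 and 55.3 in PC3, and 93.4 and 86.2 in DU145. Only PC3 lay apart, below all other samples, and DU145 was above it by 0.84 (SE 0.198, adjusted p = 0.0084). The difference of DU145 and PC3 from the other lines was -0.09 (SE 0.128, adjusted p = 0.55), and whether it was called followed the scaling. It was called lower with quantile normalization (-0.61), with median-ratio scaling (-0.56) and with the mitochondrial genes taken out (-0.33). Its sign changed only without repeat 2 of DUCAP, where it was 0.01. LAMC3 stayed at 0.53 TPM or less in LNCaP, DUCAP and VCAP but stood at 2.61 and 1.95 in DU145 and at 0.64 and 0.81 in PC3, a log2 fold change of 0.92 (adjusted p = 3.3e-05).

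DU145 and PC3 also differed from each other. Of the 27 members tested, 8 were called higher in DU145 (ITGAV, ITGAE, ITGB2, ITGB3, LAMA1, LAMB3, LAMC1 and LAMC3), beside 23.8% of all genes tested, and 7 higher in PC3 (ITGA1, ITGA6, ITGA10, ITGB4, ITGB8, LAMA4 and LAMB1), beside 25.5%. The members' median was -0.05 and that of all genes tested 0.00. The widest was that of LAMA1, followed by ITGB4, ITGA1, ITGB8, ITGB2, LAMA4, LAMB1 and ITGB3. The difference of ITGAV (0.52, adjusted p = 0.05) was at the threshold, and its call and those of ITGA10, ITGAE, ITGB3 and LAMC1 were each lost with at least 1 sample left out.

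LNCaP was above DUCAP and VCAP for 8 members (ITGA5, ITGAV, ITGAE, ITGB1, ITGB4, LAMA5, LAMB2 and LAMB3), beside 49.2% of all genes tested, and below for 7 (ITGA1, ITGA2B, ITGA3, ITGA6, ITGA9, LAMB1 and LAMB4), beside 15.5%. The median difference was 0.01 for the members and 0.46 for all genes tested, and 0.00, 0.00 and 0.24 for all genes under the 3 scalings. The split of all genes, 8615 higher and 2711 lower, became 5352 and 5149, 5365 and 5097, and 7342 and 3769 under them. The members' split of 8 and 7 became 4 and 11 with quantile normalization, 5 and 9 with median-ratio scaling and 7 and 8 with the mitochondrial genes taken out, so the balance within this contrast turned with the scaling. The differences of LAMB1 (-4.99) and ITGA5 (3.0) were the largest of either sign and were called under each of them. The calls of ITGA1, ITGA2B, ITGA3, LAMA5 and LAMB3 were each lost with at least 1 sample left out, and that of LAMA5 (0.83, adjusted p = 0.043) also under all 3 scalings (0.18, 0.22 and 0.57).

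Between DUCAP and VCAP, 0 members were called higher in DUCAP, beside 4.24% of all genes tested, by limma, and also 0 at an unadjusted p under 0.05 or with the 2-fold test of limma. In VCAP 7 were called higher (ITGA3, ITGA5, ITGA6, ITGA9, ITGAE, LAMB1 and LAMB4), beside 14.0%. The split of all genes was 742 higher and 2458 lower, 1762 and 1811 with quantile normalization, and 1631 and 1934 with median-ratio scaling, where the members' counts were 0 and 5 and 0 and 6. ITGA3 showed the largest called difference (-1.50), and that of ITGA6 (-0.90, adjusted p = 0.038) was lost under both of these scalings, as was that of LAMB1 (-0.47 and -0.41), and that of LAMB4 was lost with quantile normalization (-0.41, adjusted p = 0.05). The calls of ITGA5, ITGA6, ITGAE, LAMB1 and LAMB4 were each lost with at least 1 sample left out.

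The repeats of DU145 stood further apart than those of the other lines. Among the members tested 6 differed by at least 2-fold between its repeats on the log2(TPM + 1) scale (ITGA1, ITGA7, ITGB2, ITGB3, LAMA3 and LAMB2, all higher in repeat 1), beside 9.48% of all genes tested. In LNCaP 1 member did so (LAMA1), beside 0.942%, in VCAP 1 (LAMA5), beside 2.12%, in DUCAP 0, beside 0.902%, and in PC3 0, beside 0.993%. Of the 27 members, 23 were higher in repeat 1 of DU145 than in repeat 2, against 8 to 16 in the other lines. The matching share of all genes tested was not computed, so this count is not evidence about the members.

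The genes that act with integrins and laminins were read from 6 lists. Of the integrin activators and proteins of the adhesion plaque, which link integrins to actin, 26 of 28 were tested, and 21 were called higher and 4 lower in DU145 and PC3. ZYX, the zyxin of mature adhesions, was at 9.22 to 53.8 TPM in LNCaP, DUCAP and VCAP and at 151 to 1044 TPM in DU145 and PC3 (log2 fold change 4.23), and TGFB1I1, which encodes the paxillin relative Hic-5, was at 0.36 TPM or less against 8.88 to 43.3 (4.29). The kinase gene PTK2B (-2.31) and the blood-cell kindlin FERMT3 (-1.25) were lower, but for both the groups overlapped. PTK2B in repeat 1 of DU145 (22.7 TPM) lay between the DUCAP repeats (20.3 and 24.4). FERMT3 in LNCaP (0.33 and 0.38 TPM) lay below every DU145 and PC3 sample (0.41 to 1.06).

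Among tetraspanins and other surface partners, 7 of 10 were higher and 1 was lower. The urokinase receptor PLAUR was at 0.46 to 3.25 TPM in LNCaP, DUCAP and VCAP and at 59.3 to 78.0 in DU145 and PC3 (4.73), and the hyaluronan receptor CD44 at 0.13 to 32.2 against 104 to 237 (4.20). The tetraspanin CD9 was lower (log2 fold change -0.47), but its groups overlapped, at 141 to 351 TPM against 144 to 195. Of 6 laminin receptors other than integrins, 3 were higher and 1 was lower. The syndecans SDC4 (2.88) and SDC1 (2.46) were among those that were higher, and the ribosomal protein and laminin-binding protein gene RPSA was lower (-0.58).

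Of 5 hemidesmosome partners, 4 were tested. The plakin genes PLEC (3.45) and DST (2.01), whose products tie beta 4 to keratin, were higher, with PLEC at 4.88 to 17.0 TPM against 56.7 to 206. The basal keratin KRT14 was lower (-1.14), from 0.34 to 4.56 TPM against 0.15 or less. Of the 8 laminin partners in the basement membrane 6 were higher, with NTN4 (4.89) and the laminin-binding nidogen NID1 (3.76) furthest. FREM1 (-1.0) and FREM2 (-0.48) were lower, but their groups overlapped, with LNCaP at 0.16 TPM or less for FREM1 and listed at 0 for FREM2. Of 19 other integrin ligands 13 were tested, and 12 were higher and 0 lower. The alpha V ligand EDIL3 was at 0.04 TPM or less in LNCaP, DUCAP and VCAP and at 17.4 to 267 in DU145 and PC3 (5.91), and CCN2 at 0.37 or less against 26.4 to 169 (5.83). With quantile normalization, added after the data had been seen, the higher and lower counts were 19 and 5 of 26 for the adhesion plaque, 7 and 2 for the surface partners (7 and 3 with median-ratio scaling), 2 and 1 for the other laminin receptors, whose median turned from 0.32 to -0.20, and 11 and 1 for the other ligands, and they did not move for the hemidesmosome and basement membrane partners. Of the named genes RPSA alone was not called under it (-0.30, adjusted p = 0.082). The counts above stand beside the same 51.9% higher and 22.5% lower of all genes tested. Of the named genes, TGFB1I1, NID1, EDIL3 and CCN2 passed the filter only through DU145 and PC3. FERMT3, KRT14, FREM1 and FREM2 passed it only through LNCaP, DUCAP and VCAP. Genes that passed in this way had to differ between lines, so these counts are not evidence about the lists. All adjusted p of the named genes were 0.0072 or less in limma.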

How the data were processed

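Bulk RNA-seq of 10 untreated cultures was used. Per the submitters' processing notes the tools were FastQC 0.11.9, Trim Galore 0.6.5, STAR 2.7.2b and RSEM 1.3.3. The authors aligned to GRCh38 and deposited TPM per gene symbol, unfiltered and without scaling between samples. How rows that share a symbol were merged is not stated. TPM keep no depth, so the reads behind a value are unknown and no interval or detection floor was computed. Column totals were 982880 to 991998 TPM, and no 2 columns were identical.

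Lines and repeat numbers came from the labels. The titles also hold a number after the line's name, which for DU145 and PC3 differs from the repeat number in part and was not used. The filter kept symbols that reached 1 TPM in 2 or more samples. Their log2(TPM + 1) values were fitted by limma 3.58.1 (R 4.3.3) over all 10 samples, with a mean per line, a variance trend and Benjamini-Hochberg adjustment at 0.05. The 4 contrasts were DU145 and PC3 against the others, DU145 against PC3, LNCaP against DUCAP and VCAP, and DUCAP against VCAP. On simulated data for the first contrast, where 200 of 17520 genes carried a log2 change of 1.5, 94% were recovered, 0 with the wrong sign, and 2.59% of calls were false. The simulated noise was normal, with the same spread of a gene in every line, no other difference between lines and no shift in scaling. In the data the DU145 repeats stood further apart and the median of all genes was not 0, so these rates do not describe the calls above.

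The members and lists were chosen with earlier results of these data known. Members with a line mean of at least 20 TPM are given by sample and the others by range or contrast. From each other list the 2 largest called increases and the 2 largest decreases of the first contrast are named. Coordinates and promoters are from RefSeq for GRCh38.p14, in which 37 members had coordinates and 26 a promoter. Alternatives were another pseudocount (0.1), no filter or 5 TPM, 3 scalings, no variance trend, a 2-fold threshold, the repeat number as a block, and each sample left out. Python 3.11.15, numpy 2.4.6, pandas 2.3.3 and matplotlib 3.10.9 were also used.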

Additional observations from a re-analysis of the deposited data

How the results depend on the processing

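Of 64 member differences followed through the alternatives, the 2-fold threshold, which by construction calls fewer, ended 43 calls, and the other alternatives ended 21 at least once. The sign changed in 1: LAMC1 in DU145 and PC3 against the others (-0.09) was 0.0098 without repeat 2 of DUCAP, with a range of -0.19 to 0.0098 over samples left out. In that contrast the 24 members called higher became 11 with the 2-fold threshold, and the 2 called lower became 0 with it and 0 with the stricter filter, which neither gene passes. With a sample left out the 2 ranged from 0 to 2, at 0 without either VCAP repeat. For DU145 against PC3, the 8 higher became 2 with the 2-fold threshold and the 7 lower became 4 with the stricter filter. With a sample left out they ranged from 4 to 7 (4 without repeat 1 of PC3, 5 without repeat 2 of PC3 or of DU145) and from 4 to 12 (12 without repeat 1 of DU145, 4 without repeat 2 of PC3). For LNCaP against DUCAP and VCAP, the 8 higher became 4 after quantile normalization, 5 after median-ratio scaling and 1 with the 2-fold threshold. The 7 lower became 4 with the stricter filter, 11 after quantile normalization and 1 with the 2-fold threshold, and 3 to 8 with a sample left out (4 without repeat 1 of LNCaP or of VCAP, 3 without repeat 2 of VCAP). For DUCAP against VCAP, the 7 lower became 0 with the 2-fold threshold and 2 to 9 with a sample left out (2 without repeat 1 of DUCAP or of VCAP, 4 without repeat 2 of DUCAP, 3 without repeat 2 of VCAP). Over all genes the 2-fold threshold called 2921 higher and 905 lower, 995 and 1036, 2863 and 729, and 64 and 248 in the 4 contrasts. Rescaling without mitochondrial genes moved the ITGB1 mean to 214 TPM in LNCaP, 139 in DUCAP, 139 in VCAP, 1167 in DU145 and 1028 in PC3. Differences between repeats, aligned by repeat number, correlated between lines at r of -0.191 to 0.249 over 10 pairs of lines. For DU145 and PC3 that number differs in part from the one in the titles. Whether cultures were paired across lines therefore cannot be told from these values. With the replicate block the members called were 24 and 2, 7 and 7, 8 and 7, and 0 and 8, with 26 in the F test. ITGAV between DU145 and PC3 passed to an adjusted p of 0.057 in limma. Part of these falls comes from members that no longer passed the filter and so were not tested. These were ITGA9 and LAMB4 without a VCAP repeat, ITGB8 and LAMA4 without a PC3 repeat, and LAMC3 without a DU145 repeat. With the stricter filter they were ITGA2B, ITGA9, ITGA10, ITGB3, ITGB8, LAMA4, LAMB4 and LAMC3. Where not stated, the cause of a change was not tested. Each line had 2 repeats, and a line left with 1 sample is assumed to vary like the others.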
